A study of Mus musculus with 6 samples.

Results

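The genes described here encode the enzymes that build cholesterol and fatty acids, together with the regulators that set their transcription. They were taken by symbol from the deposited table of protein-coding genes as 32 named genes out of 22482. By textbook role they fall into 18 enzymes of sterol synthesis, 5 regulators and carriers of sterol (Srebf1, Srebf2, Scap, Insig1 and Stard4) and 9 enzymes that make, lengthen or desaturate fatty acids. Of the 32 genes, 31 were found by their exact symbol, and Msmo1, a sterol methyl oxidase, was found by its Ensembl gene ID under the older symbol Sc4mol. All 32 passed the filter on low values, an FPKM (fragments per length of transcript and size of library) of at least 0.5 in at least 3 of the 6 libraries, so none was lost from the tests.

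The libraries came from cultured vascular smooth muscle cells of the aorta of C57BL/6 mice, the contractile cells of the vessel wall, grown in DMEM with 10% fetal bovine serum. By the labels, 3 libraries came from cells that carried an adenovirus meant to knock down Myocd for 48 h (labelled knockdown), and 3 from cells that carried a negative control adenovirus for 48 h (labelled control), although the overall design names these cells wildtype. All 6 libraries therefore shared the strain, the serum and, by the sample labels, exposure to an adenovirus. Total RNA freed of ribosomal RNA was sequenced as stranded libraries, and the question of the design is how gene expression differs when Myocd, a coactivator of smooth muscle genes, is lowered. Whether the 3 libraries within each group represent different cultures or different mice is not stated, and p-values can therefore reflect no more than library-to-library spread, perhaps of technical origin.

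The level of the targeted gene ran against the labels. Myocd was at 0.0355, 0 and 0.125 FPKM under the control label, which is 0 to 7 fragments per library, and at 132, 130.1 and 146 FPKM under the knockdown label. The groups are therefore named throughout as labelled, and higher or lower always means in the group labelled knockdown compared with the group labelled control. Whether the labels were exchanged or the virus raised Myocd was not tested. If the labels were exchanged, every direction below would turn. The summed FPKM of 10 smooth muscle markers was 663 to 711 in the libraries labelled knockdown and 223 to 248 in those labelled control, and its largest parts were Acta2, Myocd and Des under the knockdown label and Des, Acta2 and Smtn under the control label. Of the 10 markers 8 were tested and 6 were called by limma, all higher under the knockdown label. They were Myocd, Actg2 (means of 15.5 and 0.464 FPKM), Acta2 (340.2 and 67.2), Myl9 (7.80 and 1.35), Lmod1 (0.733 and 0.0774) and Des (124 and 108). The contractile markers Myh11 and Cnn1 stayed under 0.5 FPKM in all 6 libraries. The part of this difference in the results below was not tested. The adipocyte markers, which would mark another lipogenic cell, summed to 12.8 to 16.7 against 13.8 to 15.4 FPKM, almost all of it Pparg, and Adipoq, Lep, Cidea and Ucp1 were at 0 in every library. Hepatocyte markers summed to at most 0.288 FPKM with 5 of 7 genes at 0 throughout. Endothelial markers summed to 1.32 to 2.34 against 0.640 to 1.09. Among them Vwf, at means of 1.24 and 0.185, was called higher by limma (log2 fold change 2.28). It rested on 6 to 22 fragments per library, and edgeR did not call it (1.16, adjusted p = 0.0869). Macrophage and leukocyte markers summed to 20.7 to 24.7 against 22.5 to 26.6. They were carried by Cd14 (15.9 to 21.7) and Cd68 (2.02 to 5.51), with Ptprc at or near 0. Fibroblast markers summed to 190.1 to 214 against 192 to 213, carried by Col1a2 and Col1a1, with 3 of 8 under 0.5 FPKM in every library. Of these, 5 were tested and limma called none. Dcn was higher without overlap (means of 5.61 and 3.29 FPKM), and the other fibroblast markers overlapped between the groups. In such bulk libraries, fewer cells of a type and less RNA per cell cannot be told apart. The libraries held 7528152 to 9793783 fragments assigned to protein-coding genes, with the lowest number in replicate 3 of the group labelled knockdown.

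Cells make cholesterol from acetyl-CoA through the mevalonate pathway and squalene, and they make fatty acids from the same acetyl-CoA through malonyl-CoA. Both branches are controlled by the sterol regulatory element binding proteins (SREBPs), membrane-bound transcription factors that the escort protein Scap carries to the Golgi for release when sterols are low and that Insig1 holds back when sterols are high. Srebf2 encodes the form tied most closely to sterol enzymes and Srebf1 the forms tied most closely to fatty acid enzymes. In smooth muscle cells the pathway supplies membrane lipid, and its balance with uptake is of interest because these cells can load cholesterol in the vessel wall.

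SREBPs bind weakly alone and act with partners such as NF-Y, which binds CCAAT, and Sp1, which binds GGGCGG. RefSeq promoter windows of GRCm38.p6, from 250 bases before the start site to the last base before it, were available for 25 of the 32 genes, namely all except Fdps, Fdft1, Sqle, Stard4, Scd1, Scd2 and Fads1. The letters were searched on both strands. CCAAT was found in 14 of 15 sterol enzyme genes (93.3%), in 3 of 4 regulators and carriers and in 2 of 6 fatty acid enzyme genes (33.3%), against 37.5% of all 27025 genes with a window and 41.6% of the 8643 genes that were also tested for expression. GGGCGG was found in 14 of 15 sterol enzyme genes, 4 of 4 regulators and 3 of 6 fatty acid enzyme genes, against 35.4% of all genes and 65.4% of tested genes. The E-box CACGTG was in 5 of 25 genes, against 6.86% of all genes and 9.97% of tested genes. The sterol regulatory element searched as TCACNCCAC was in 1 of the 25, Hmgcs1, against 1.22% of all genes. A gene with several windows has more chances of a match, which applies here to Dhcr7, Pmvk, Scap and Srebf1, and a match is a description of letters rather than of a bound site. The only window of Acaca, chr11:84195188-84195437, lies inside the deposited gene, which starts at 84129672. It held no match, and the shares of the 6 fatty acid enzyme genes count it as a gene without one. The windows of Acat2, Acss2, Idi1, Mvd and Tm7sf2 also lie inside the deposited genes, as do some windows of Dhcr7, Pmvk and Srebf1. The deposited loci of Acss2, Mvd and Tm7sf2 cover other genes as well. Acat2 was the sterol enzyme gene without CCAAT. Several further windows, such as that of Msmo1, overlap the deposited gene in part.

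The following 5 promoters are shown because the results turn on these genes: Fasn was the single member called by limma, Mvk and Nsdhl had the largest differences in opposite directions among the sterol genes of smallest p, and Hmgcs1 and Idi1 differed between replicates. Each is the run of 250 bases that ends 1 base before the start site, counted backwards from -1 at that base, and is written 5′ to 3′ on the strand of the gene, and capitals mark CCAAT, its reverse complement ATTGG, and in Hmgcs1 the sterol regulatory element.
Fasn, chr11:120824548-120824797, minus strand: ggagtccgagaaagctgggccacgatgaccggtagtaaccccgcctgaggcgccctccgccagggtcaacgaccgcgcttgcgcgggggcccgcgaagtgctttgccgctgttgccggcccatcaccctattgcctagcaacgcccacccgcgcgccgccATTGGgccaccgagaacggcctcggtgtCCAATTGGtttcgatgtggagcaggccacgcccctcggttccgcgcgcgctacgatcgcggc
Mvk, chr5:114444019-114444268, plus strand: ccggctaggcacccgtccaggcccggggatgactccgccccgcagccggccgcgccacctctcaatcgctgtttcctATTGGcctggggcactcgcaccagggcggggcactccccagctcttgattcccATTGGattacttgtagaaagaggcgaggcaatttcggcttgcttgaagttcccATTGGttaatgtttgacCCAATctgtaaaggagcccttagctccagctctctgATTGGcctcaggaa
Nsdhl, chrX:72918271-72918520, plus strand: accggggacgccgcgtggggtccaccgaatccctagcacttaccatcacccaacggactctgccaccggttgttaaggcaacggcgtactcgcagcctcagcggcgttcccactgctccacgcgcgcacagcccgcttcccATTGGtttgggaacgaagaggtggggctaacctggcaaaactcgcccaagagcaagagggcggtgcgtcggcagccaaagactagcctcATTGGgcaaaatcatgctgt
Hmgcs1, chr13:119690101-119690350, plus strand: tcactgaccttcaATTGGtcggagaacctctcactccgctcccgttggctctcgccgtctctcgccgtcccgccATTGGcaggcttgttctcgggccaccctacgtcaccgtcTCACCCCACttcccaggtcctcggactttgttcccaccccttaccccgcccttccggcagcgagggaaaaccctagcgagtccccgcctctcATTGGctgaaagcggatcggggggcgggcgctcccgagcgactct
Idi1, chr13:8885356-8885605, plus strand: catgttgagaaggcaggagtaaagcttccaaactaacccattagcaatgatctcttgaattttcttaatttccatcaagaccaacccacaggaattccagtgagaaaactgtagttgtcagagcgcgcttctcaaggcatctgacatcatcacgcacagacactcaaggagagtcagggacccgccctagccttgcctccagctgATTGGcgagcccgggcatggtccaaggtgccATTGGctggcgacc
In Fasn an ATTGG lay at bases -90 to -86, and a CCAAT at -62 to -58 overlapped an ATTGG at -59 to -55. Mvk carried the most matches of the 25 genes, with 5, the nearest at -14 to -10. In Hmgcs1 the element TCACCCCAC lay at -137 to -129 on the sense strand, between ATTGG at -176 to -172 and ATTGG at -45 to -41. Nsdhl and Idi1 carried a pair of ATTGG each, the nearer ones at -20 to -16 and -14 to -10. The Idi1 window lies before the RefSeq start but inside the deposited gene, which starts at 8884914.

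All of the genes were expressed in every library, and their levels spanned a wide range. The median over the 32 genes was 43.9 FPKM, against 13.3 FPKM over all 11612 tested genes. Scd2, a stearoyl-CoA desaturase that makes monounsaturated fatty acids, was the highest at a mean of 487 FPKM, followed by its paralog Scd1 at 228 FPKM. Among sterol enzymes the highest was Fdps, which makes farnesyl diphosphate, at a mean of 165.0 FPKM, and the lowest was Tm7sf2, a sterol reductase, at 11.3 FPKM. Insig1 was the highest regulator at 66.3 FPKM and Stard4, a sterol carrier protein, the lowest of that group at 16.3 FPKM. The lowest fatty acid enzyme was Acss2, which makes acetyl-CoA from acetate, at 11.2 FPKM. The median was 37.8 FPKM for the sterol enzymes, 33.3 FPKM for regulators and carriers and 71.3 FPKM for fatty acid enzymes.

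**Figure D1:**
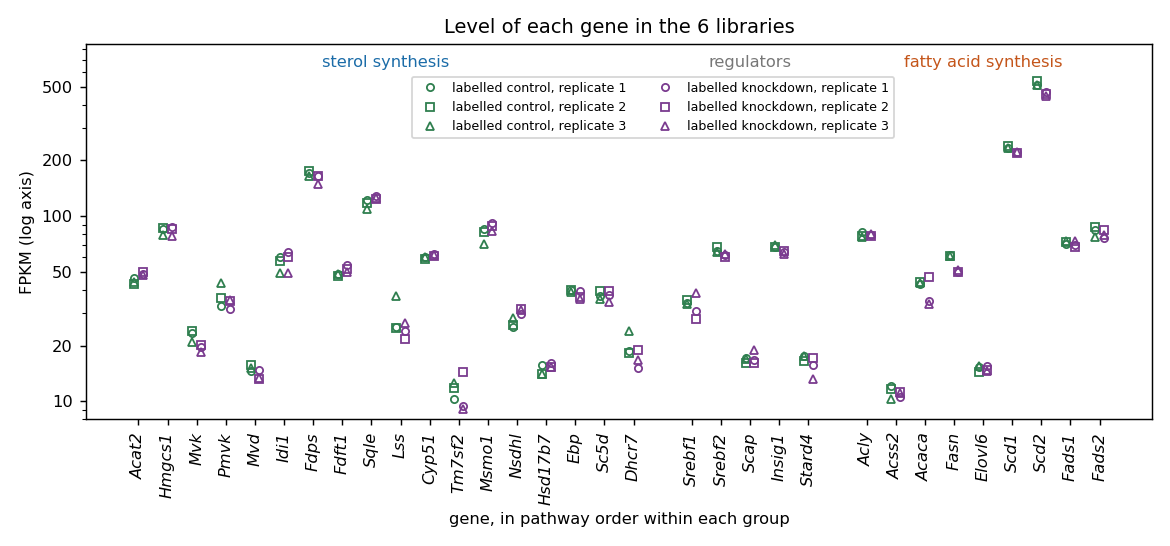
FPKM of the 32 genes (log axis) in each of the 6 libraries, in pathway order within each group. Green symbols are libraries labelled control and purple symbols libraries labelled knockdown, with the replicate given by the shape. For nearly every gene the 6 symbols lie close together compared with the range between genes, from Acss2 at 11.2 to Scd2 at 487 FPKM.

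The difference between the groups was small in this set of genes. On the scale of log2(FPKM + 0.1), tested with limma across all 11612 genes and adjusted by Benjamini-Hochberg, 1 of the 32 genes was called at 0.05, the fatty acid synthase gene Fasn, which was lower, and 31 were not called. Over all tested genes 1.61% were called lower and 1.83% higher. None of the 18 sterol enzymes was called by limma (3 had an unadjusted p under 0.05), nor any of the 5 regulators and carriers (1 had an unadjusted p under 0.05). With edgeR's quasi-likelihood test on recovered fragment counts, 2 sterol enzymes were called higher (Nsdhl and Acat2) and 2 fatty acid enzymes lower (Fasn and Scd2), against backgrounds of 5.45% higher and 4.5% lower. DESeq2 on the same counts called Fasn and Scd2 lower and no member higher, against backgrounds of 4.19% lower and 5.19% higher of the 7714 genes it gave an adjusted p, which Tm7sf2 was not given. The median log2 fold change was -0.07 over the 32 genes and -0.01 over all tested genes, and no member moved by more than 0.281 in either direction.

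**Figure D2:**
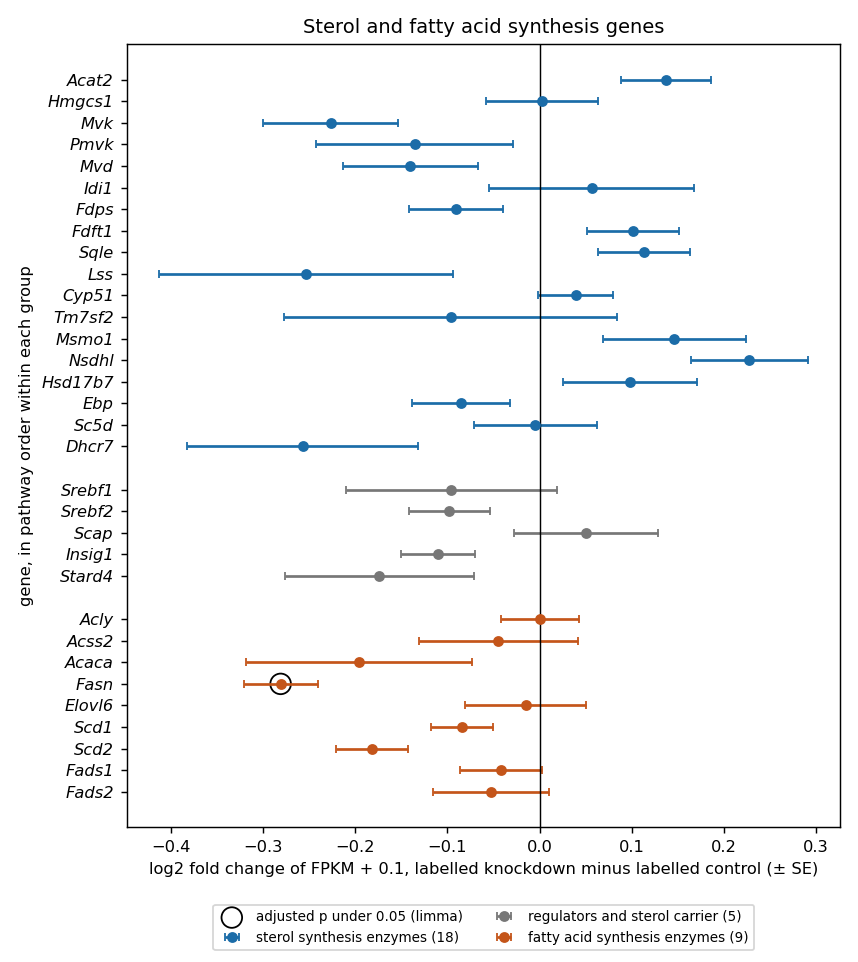
Log2 fold change of FPKM + 0.1, labelled knockdown minus labelled control, with its standard error from limma, for each gene in pathway order. The circled point, Fasn at -0.28, is the member with a limma adjusted p under 0.05. Sterol enzymes lie on both sides of 0, from -0.26 to 0.23, and fatty acid enzymes at or below it.

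The upstream regulators showed small differences, of at most 0.17 in log2 on FPKM, that limma did not call. Insig1, the sterol-responsive retention protein, read 63.9, 64.5 and 62.8 FPKM under the knockdown label and 68.1, 68.1 and 70.2 FPKM under the control label. All 3 labelled knockdown values were below all 3 labelled control values (log2 fold change -0.11, SE 0.04, limma adjusted p = 0.166). Srebf2 read 61.4, 60.3 and 62.5 against 65.2, 68.0 and 63.9 FPKM, again without overlap (log2 fold change -0.10, SE 0.04, limma adjusted p = 0.240). Srebf1 varied between replicates on FPKM. It read 30.8, 27.7 and 38.7 FPKM against 33.8, 35.3 and 33.8 FPKM, so that on this scale the libraries labelled knockdown spanned the control values (limma adjusted p = 0.658). Its log2 fold change on FPKM was -0.10 with all libraries and 0.01 without replicate 2 of the group labelled knockdown. Before scaling for library size, its fragments were 876, 770 and 738 against 1023, 989 and 1024. On fragments edgeR gave -0.18 (adjusted p = 0.057) and DESeq2 -0.18 (adjusted p = 0.132). Scap, at 16.8, 16.1 and 19.0 against 17.1, 16.1 and 16.9 FPKM, overlapped as well. Stard4, which moves cholesterol between membranes, read 15.7, 17.1 and 13.2 against 17.7, 16.4 and 17.5 FPKM, with replicate 3 of the group labelled knockdown the lowest (log2 fold change -0.17, SE 0.10, limma adjusted p = 0.360). The deposited locus of Srebf1 also covers Rai1, and that of Scap covers another gene, 5830462I19Rik, so shared fragments could be split between them.

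The early sterol steps, from acetoacetyl-CoA to farnesyl diphosphate, showed small differences in both directions. Their 7 genes had a median log2 fold change of -0.09 and limma called none. Mvk, mevalonate kinase (chr5:114444269-114460591), read 19.7, 20.2 and 18.4 FPKM in the group labelled knockdown and 23.3, 24.0 and 21.0 in those labelled control. These values did not overlap, and the mean was 85.3% of the labelled control mean (log2 fold change -0.23, SE 0.07, limma adjusted p = 0.133). Acat2, the cytosolic acetoacetyl-CoA thiolase at the head of the pathway (chr17:12942890-12961559), lay on the other side, at 48.8, 49.7 and 48.4 against 46.6, 43.0 and 43.9 FPKM. It was higher in all 3 libraries labelled knockdown, with a log2 fold change of 0.14 and an SE of 0.05 (limma adjusted p = 0.161), and edgeR placed it just inside the threshold at 0.16 (adjusted p = 0.0485). Hmgcs1, HMG-CoA synthase, gave 87.5, 85.6 and 77.9 against 84.9, 86.6 and 78.9 FPKM, with group means of 83.7 ± 5.09 and 83.5 ± 4.08 (SD, n = 3). Fdps read 165, 165 and 149.5 against 170.4, 175 and 165 FPKM (limma adjusted p = 0.344). Pmvk, Mvd and Idi1 had log2 fold changes of -0.14, -0.14 and 0.06, with limma adjusted p of at least 0.310. The deposited locus of Mvd spans many overlapping genes.

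The later sterol steps, from squalene to cholesterol, had differences in both directions as well. The median over these 11 genes was 0.04, and limma called none. Nsdhl, the sterol dehydrogenase that takes part in removing the methyl groups at carbon 4 (chrX:72918557-72958514), had the smallest p of all sterol enzymes. It read 29.5, 31.7 and 31.2 FPKM in the group labelled knockdown and 25.1, 25.7 and 28.1 FPKM in those labelled control. All 3 values were above the controls, by a mean of 30.8 ± 1.16 against 26.3 ± 1.58 FPKM (SD, n = 3), with a log2 fold change of 0.23 and an SE of 0.06 (limma adjusted p = 0.0964, edgeR adjusted p = 0.0448). Sqle, squalene epoxidase, read 128, 123 and 126 against 122, 117 and 109.6 FPKM, without overlap (log2 fold change 0.11, limma adjusted p = 0.234). Fdft1, which makes squalene, and Cyp51, the lanosterol demethylase, were also higher without overlap, by 0.10 and 0.04 in log2, and the deposited locus of Fdft1 also covers Ctsb. Lss, which closes the ring to lanosterol, and Dhcr7, which performs a last reduction, had the most negative log2 fold changes of the branch on FPKM at -0.25 and -0.26, with SEs of 0.16 and 0.13 and limma adjusted p of 0.387 and 0.276. On fragments edgeR gave -0.02 and -0.15, and there Mvk was the most negative sterol enzyme at -0.23. In both, replicate 3 of the group labelled control was the highest library, at 37.1 FPKM for Lss and 23.9 FPKM for Dhcr7. Tm7sf2, at 9.50, 14.5 and 9.12 against 10.3, 11.8 and 12.6 FPKM, overlapped, and its log2 fold change was -0.10 with limma and 0.08 with edgeR. Its deposited locus also spans many genes. The remaining 4 enzymes, Msmo1, Hsd17b7, Ebp and Sc5d, lay between -0.09 and 0.15 with overlapping groups.

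Fasn, which encodes the multifunctional enzyme that builds palmitate from malonyl-CoA (chr11:120805940-120824178), had the smallest p of the 32 genes. It read 49.9, 49.9 and 51.2 FPKM in the group labelled knockdown and 61.5, 60.9 and 61.1 FPKM in those labelled control. The groups did not overlap and varied little within themselves, with means of 50.3 ± 0.772 and 61.1 ± 0.308 FPKM (SD, n = 3), so the labelled knockdown mean was 82.3% of the labelled control mean. The log2 fold change was -0.28 with an SE of 0.04 (limma adjusted p = 0.0186, edgeR adjusted p = 0.000195), and it rested on 4182 to 6787 fragments per library. The size stayed between -0.29 and -0.27 in all 19 alternative analyses, and the call was lost in 7 of them. Those were limma without an intensity trend (adjusted p = 0.0627), the removal of both replicate 3 libraries (0.0622), and the removal of any single library other than replicate 3 of the group labelled knockdown (0.0509 to 0.0832).

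The desaturase gene Scd2 had the next smallest p of the 32 genes. Scd2 (chr19:44293676-44306864) read 467, 458 and 444 FPKM in the group labelled knockdown and 509, 536 and 508 FPKM in those labelled control. The groups did not overlap, and the mean of 456 ± 11.9 FPKM was 88.2% of the labelled control mean of 518 ± 15.7 FPKM (SD, n = 3). This fell just outside the limma threshold (log2 fold change -0.18, SE 0.04, adjusted p = 0.0551) and inside that of edgeR (-0.17, adjusted p = 0.0013). Scd1 (chr19:44394451-44407709) read 223, 220.0 and 223 against 232, 240.3 and 233 FPKM, lower without overlap by a smaller amount (log2 fold change -0.08, SE 0.03, limma adjusted p = 0.205). Scd1 and Scd2 are paralogs, so fragments from stretches they share could be divided between them. The other fatty acid enzymes overlapped between the groups on FPKM. Acly, which makes cytosolic acetyl-CoA from citrate, had means of 79.3 ± 0.802 and 79.3 ± 2.77 FPKM (SD, n = 3). Acaca, acetyl-CoA carboxylase, read 34.9, 47.2 and 33.6 against 43.0, 44.2 and 43.8 FPKM, with replicate 2 of the group labelled knockdown above all of the others on this scale (log2 fold change -0.20, limma adjusted p = 0.385). That library was not the highest on fragments, which were 1900, 1770 and 1467 against 2085, 2123 and 2180 before scaling for library size. On fragments edgeR gave -0.15 (adjusted p = 0.0651) and DESeq2 -0.15 (adjusted p = 0.0752). Acss2 read 10.6, 11.3 and 11.1 against 12.1, 11.7 and 10.3 FPKM, and the elongase Elovl6 and the polyunsaturated desaturases Fads1 and Fads2 had log2 fold changes of -0.02, -0.04 and -0.05. The deposited loci of Acss2 and Acaca cover other genes too (Ggt7 and Gss, and Gm11437), and Fads1 and Fads2 are paralogs.

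**Figure D3:**
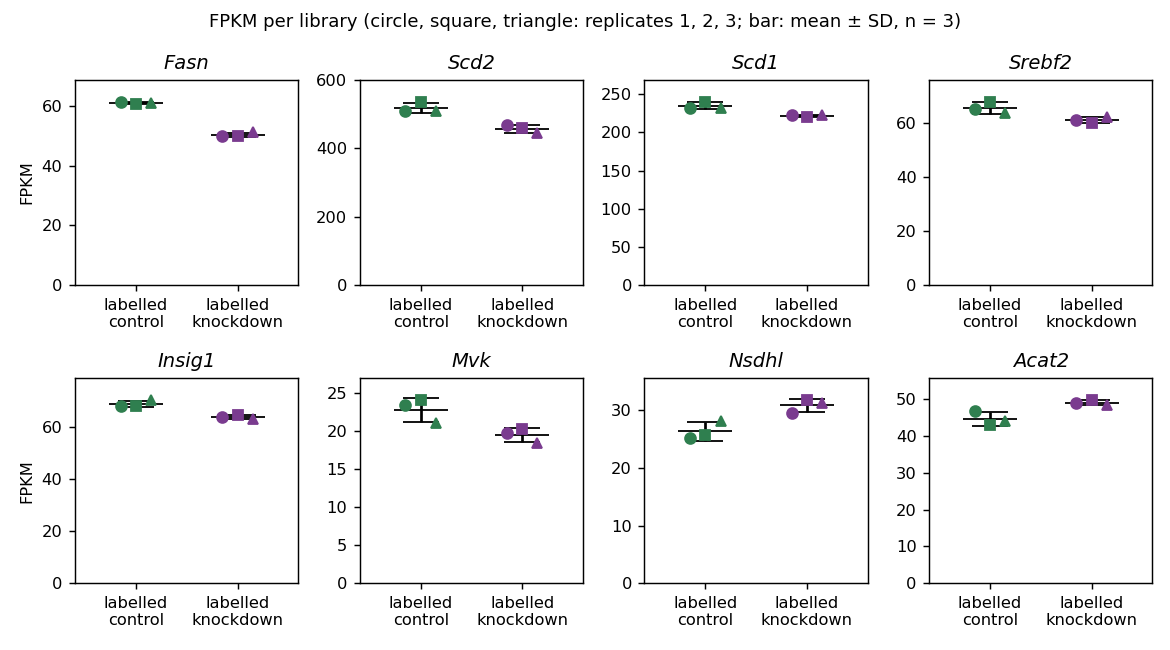
FPKM per library of the 8 genes with a call or with non-overlapping groups that the text describes in most detail, with the mean ± SD of 3 libraries. Fasn lies at 49.9 to 51.2 against 60.9 to 61.5 FPKM and Scd2 at 444 to 467 against 508 to 536 FPKM, whereas Nsdhl and Acat2 lie higher in the libraries labelled knockdown.

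The genes were also counted by whether their groups overlapped on FPKM. Lower without overlap were 6 of the 32 genes, made up of Mvk, Srebf2, Insig1, Fasn, Scd1 and Scd2, and 15.6% of all tested genes were. Higher without overlap were 5 of the 32, all of them sterol enzymes (Acat2, Fdft1, Sqle, Cyp51 and Nsdhl), against 13.3% of all tested genes. Taken over all 32 genes, these shares of 18.8% and 15.6% lie near the background. By sign, 9 of 18 sterol enzymes, 4 of 5 regulators and carriers and 8 of 9 fatty acid enzymes had a negative log2 fold change, against 52.2% of all tested genes. The medians were -0.0011 for sterol enzymes, -0.10 for regulators and carriers and -0.05 for fatty acid enzymes.

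The branches were then set against each other within each library, where the library's own scale cancels. The mean log2(FPKM + 0.1) of the 9 fatty acid enzymes minus that of the 18 sterol enzymes was 0.66, 0.69 and 0.73 in the libraries labelled knockdown and 0.79, 0.79 and 0.73 in those labelled control. The groups did not overlap but nearly met at replicate 3, where the 2 values were 0.726 and 0.729. The means were 0.69 ± 0.03 and 0.77 ± 0.04 (SD, n = 3), a difference of -0.08. The fatty acid enzymes differed by -0.10 (5.97 ± 0.03 against 6.06 ± 0.02). The sterol enzymes differed by -0.02 (5.27 ± 0.05 against 5.29 ± 0.01), in the same direction, which made the contrast smaller. With the median over genes in place of the mean the difference in the contrast became 0.05, so its direction turned with the summary used. No p-value is attached to it, and with 3 libraries against 3 an exact two-sided permutation test cannot go below 0.1.

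The replicate 3 libraries stood apart from the others in both groups for some sterol genes. Replicate 3 was set against the others because it was already known to stand apart. The calls and p-values of this comparison therefore describe that difference and are no independent test of it. In a comparison of replicate 3 with replicates 1 and 2, with the group kept in the model, edgeR called 1.13% of tested genes lower and 1.06% higher in replicate 3, and limma called 1 gene in all, which was no member. By edgeR, 2 of the 32 genes were called, both lower and both in the mevalonate steps. Idi1, isopentenyl diphosphate isomerase, read 49.5 FPKM in replicate 3 labelled knockdown and 49.4 in replicate 3 labelled control, against 57.5 to 64.3 FPKM in the other 4 libraries (edgeR log2 difference -0.25, adjusted p = 0.00654). Hmgcs1 read 77.9 and 78.9 FPKM against 84.9 to 87.5 in the other libraries (edgeR log2 difference -0.12, adjusted p = 0.0304). Replicate 3 was the lowest library in both groups for 7 of 18 sterol enzymes, 4 of them among the 7 mevalonate genes, for 1 of 9 fatty acid enzymes and for none of the 5 regulators and carriers, against 2090 of the 11612 tested genes. For Idi1 this replicate difference was larger than the difference between the groups, 0.06 in log2.

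**Figure D4:**
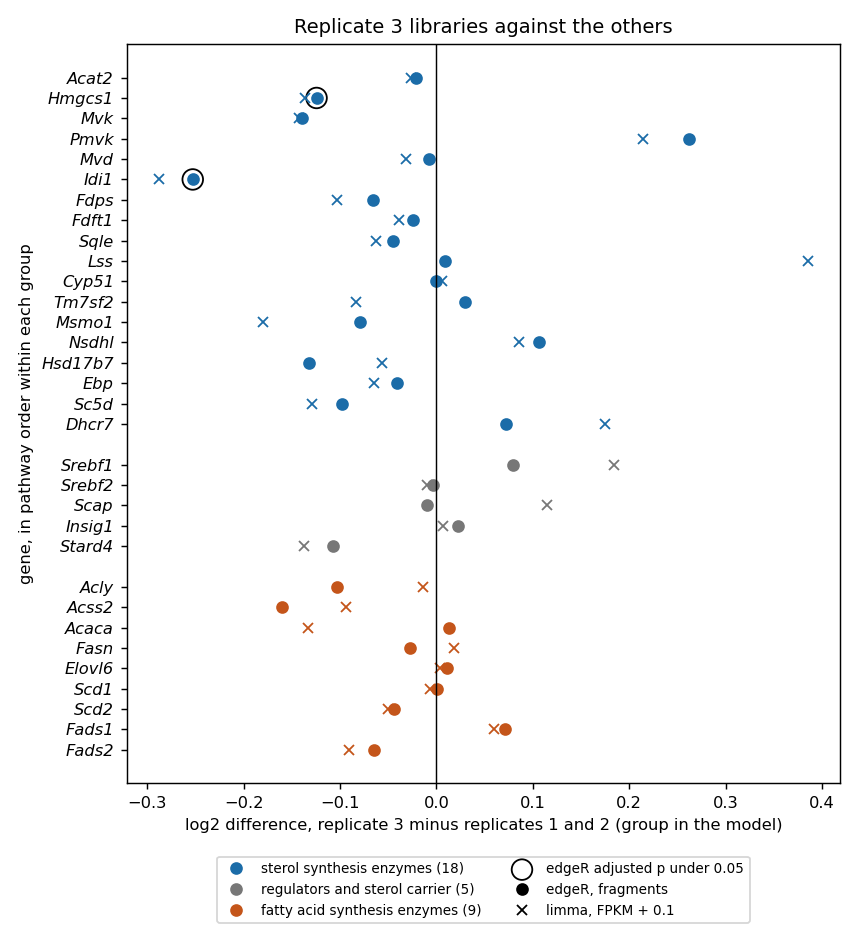
Log2 difference of replicate 3 from replicates 1 and 2, with the group in the model, from edgeR on fragments (filled) and limma on FPKM + 0.1 (crosses). The circled points are Idi1 at -0.25 and Hmgcs1 at -0.12, the 2 members with an edgeR adjusted p under 0.05. For Lss the crosses and points part, at 0.39 and 0.01.

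Genes around the pathway were examined in 7 lists of 105 genes, of which 99 were tested and 4 were called by limma, 2 higher and 2 lower. That share of 4.04% lies near the 1.83% higher and 1.61% lower of all tested genes together. On fragments, edgeR called 4 higher and 3 lower and DESeq2 3 higher and 1 lower. In the list of sterol esterification and intracellular transport, 2 of 13 genes were called by limma, in opposite directions. Npc2, the lysosomal protein that hands cholesterol to the transporter of the lysosomal membrane, rose from 163, 161 and 168 FPKM in the libraries labelled control to 211, 216 and 221 FPKM in those labelled knockdown. The groups lay far apart relative to their spread (log2 fold change 0.40, SE 0.04, limma adjusted p = 0.00717), and the call held in all 19 alternatives. Stard3, a late endosomal sterol transporter, fell from 15.1, 15.3 and 15.2 FPKM to 12.1, 12.5 and 11.4 FPKM (log2 fold change -0.33, SE 0.07, limma adjusted p = 0.0433). Its call was lost in 11 of the 19 alternatives, among them DESeq2 (adjusted p = 0.131) and the removal of any single library (0.0871 to 0.131). In the list of glycerolipid synthesis and storage, Plin2, the coat protein of lipid droplets, was the 1 of 16 genes called by limma, while edgeR called Lpin2 and Chka lower besides it (adjusted p = 0.0337 and 0.0477). It rose from 147, 148 and 154 to 174, 177 and 184 FPKM (log2 fold change 0.25, SE 0.04, limma adjusted p = 0.0267). The call was lost without both replicate 3 libraries (adjusted p = 0.0557), in limma without a trend (0.0941) and on removal of any single library other than replicate 3 of the group labelled control (0.0617 to 0.105).

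Among 21 tested genes of fatty acid elongation, activation and lipogenic cofactors, Mid1ip1, a cofactor that promotes acetyl-CoA carboxylase assembly, was the single call by limma. It fell from 33.7, 31.4 and 30.5 to 26.5, 26.4 and 25.1 FPKM (log2 fold change -0.29, SE 0.06, limma adjusted p = 0.0473). The call was lost in 14 of the 19 alternatives, and edgeR gave -0.15 with an adjusted p of 0.160. In the same list edgeR called Acsl4 and Slc25a1 higher (adjusted p = 0.0269 and 0.0314), which limma did not. No gene was called by limma among 12 genes of SREBP processing and sterol sensing (smallest p for the ubiquitin-conjugating enzyme Ube2g2, adjusted p = 0.103), 14 of the non-sterol isoprenoid branch (Coq2 of ubiquinone synthesis, 0.142), 8 tested LXR targets and cholesterol efflux genes (the LXR gene Nr1h2, 0.170) and 15 tested genes of fatty acid oxidation (the acyl-CoA dehydrogenase Acads, 0.0682). The medians of the 7 lists lay between -0.10 and 0.02.

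A separate table of long noncoding RNA transcripts listed 20 transcripts at the loci of 16 of the 32 genes, 9 of them natural antisense, 4 bidirectional, 6 exon sense-overlapping and 1 intron sense-overlapping. Most were near or at 0. In all, 8 were at 0 in every library and 3 reached 0.1 FPKM in at least 3 libraries and were tested. The transcript at Sc5d, sense-overlapping and so sharing fragments with the gene, read 4.21, 3.87 and 3.35 against 3.25, 3.87 and 3.82 FPKM and was not called (limma adjusted p = 0.893). The transcript at Elovl6 was near 0 in replicates 1 and 2 labelled knockdown and 0.910 FPKM in replicate 3, against 0.485, 1.11 and 0.381 FPKM under the control label, and was not called (limma adjusted p = 0.496). The antisense transcript AK081594 at Acat2 had 1 fragment in each library labelled control and 0 in each labelled knockdown. It passed the filter only through the libraries labelled control, and its limma call (4.26% of 4955 tested transcripts were called in either direction) is not read as a difference, since these counts lie at or under the floor of what can be shown. Whether strand was used in counting is not given in the sources used here, so fragments of a gene and of its antisense transcript may not be separable.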

How the data were processed

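Stranded libraries from ribosome-depleted total RNA were measured in 6 samples, 3 labelled knockdown and 3 labelled control. Per the submitters' processing notes, the authors used HISAT2 2.0.4, Cuffdiff 2.2.1, Cufflinks and cutadapt. The builds mm10 and mm9 are named there without roles. For the annotation release and the use of strand, no statement was found (not given in the sources used here). FPKM values were deposited, scaled by the authors to transcript length and library size. The deposited count columns hold estimated counts multiplied by a constant of 0.916 to 1.20 per library. Divided by it, 90.1% to 90.4% of values above 0 lay within 0.01 of a whole number, and the quotients were rounded to whole fragments for the count tests. The mRNA table has 22565 rows, and rows of 79 repeated symbols were summed to 22482 genes. The lncRNA table has 56348 rows for 31550 transcripts, each used once. With 1 added, the start of 6277 genes equals the RefSeq GRCm38 start, against 472 genes otherwise, so coordinates are mm10. Sequences are from RefSeq GRCm38.p6. No column of samples outside the labels was found.

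In R 4.3.3, limma 3.58.1 with an intensity trend was fitted to log2(FPKM + 0.1) of all 11612 genes with an FPKM of at least 0.5 in at least 3 libraries (lncRNA: 4955 transcripts with at least 0.1), with the group as the only term, Benjamini-Hochberg adjustment and a threshold of 0.05. A fold change on this scale understates that of low genes. edgeR 4.0.16 (quasi-likelihood, TMM) and DESeq2 1.42.0 on the fragments were alternatives, as were other pseudocounts (0.01, 1), filters (none, 1 FPKM), normalizations, a replicate block and left-out libraries. The limma and edgeR fits were tested on simulated data with changes far larger than that of any member. That test does not show how well differences of the size seen here are found. No pair of replicates agreed within sampling noise (chi-square per gene of 2.43 to 6.02).

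Genes were chosen, and lists and branches assembled, with earlier results of these data known, so their counts and medians are descriptions. The comparison of replicate 3 with the others was likewise chosen after replicate 3 was known to stand apart. Values per library are given for called members, for the 3 of smallest p, the highest and the lowest of each branch, and for Srebf1, Srebf2, Insig1, Fasn, Scd1 and Scd2. From the related lists, called genes or else the gene of smallest p are named. Other genes that are given values were chosen after their values were seen.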

Additional observations from a re-analysis of the deposited data

How the results depend on the processing

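The count of called genes depended on the method. Limma called 400 genes in all, 144 without a trend, 243 with a replicate block, 44 to 178 with any 1 library left out and 76 without both replicate 3 libraries, whereas edgeR called 1150 with TMM, 1153 with DESeq2 size factors and 1168 with no filter, and DESeq2 called 723. The deviations of same-numbered libraries had correlations of 0.037, -0.0039 and 0.0999, the highest for replicate 3. Those of libraries with different numbers ran from -0.0876 to 0.0588. The main fit did not pair the libraries by number, although replicate 3 stood apart in both groups for some genes, and a replicate block was run as an alternative. With the replicate block Fasn stayed called (adjusted p = 0.0442) and no call among the members changed, while Stard3 and Mid1ip1 were not called. Sterol enzymes called went from 0 to 2 in each of the 3 edgeR settings (Nsdhl with Acat2, or with Msmo1 when no filter was used). Regulators called went from 0 to 1, Srebf1, under edgeR with no filter. Fatty acid enzymes called went from 1 to 0 without a trend and without both replicate 3 libraries, to 0 to 1 with 1 library left out, and to 2, Fasn and Scd2, with robust estimation, quantile normalization, the 3 edgeR settings and DESeq2.

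The median log2 fold change of the sterol enzymes was 0.041 with edgeR and TMM, 0.040 with DESeq2 size factors, 0.038 with no filter and 0.040 with DESeq2, and ran from -0.031 to 0.044 with 1 library left out, the highest without replicate 3 labelled knockdown. That of the fatty acid enzymes was -0.072, -0.073, -0.075 and -0.074 in the same settings, -0.098 without both replicate 3 libraries, and -0.11 to -0.044 with 1 library left out. That of the regulators and carriers ran from -0.11 to -0.074 with 1 library left out. The fatty acid minus sterol difference became 0.049 with medians over genes. Genes called between replicate 3 and the others went from 1 with limma to 254 with edgeR. The lncRNA call at Acat2 went from 1 to 0 with a pseudocount of 1, with a filter of 0.5 FPKM and with the replicate block, and was 0 to 1 with 1 library left out.

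Signs turned in 9 members, none of them called by limma with all libraries. With quantile normalization Hmgcs1 gave -0.0049, Sc5d 0.0010, Acly -0.014 and Elovl6 0.0079. Without both replicate 3 libraries Tm7sf2 gave 0.088, Sc5d 0.013, Scap -0.0089, Acly -0.023 and Elovl6 0.026. Tm7sf2 gave 0.078, 0.077 and 0.075 in the 3 edgeR settings and 0.074 in DESeq2. With 1 library left out the ranges were -0.038 to 0.053 for Hmgcs1, -0.026 to 0.17 for Idi1, -0.31 to 0.023 for Tm7sf2, -0.048 to 0.047 for Sc5d, -0.23 to 0.0094 for Srebf1, -0.018 to 0.099 for Scap, -0.016 to 0.029 for Acly, -0.11 to 0.0028 for Acss2 and -0.045 to 0.0067 for Elovl6. The cause of these changes was not tested, except that fewer libraries enter when some are left out. Counting error limits the lowest members most, such as Tm7sf2 with 95 to 155 fragments per library.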

Other observations

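For 5 of the 32 genes the log2 fold change on FPKM and that on fragments differed by more than 0.1, while the median size of this gap was 0.014 over the members and 0.026 over all genes. Lss, the lanosterol synthase gene, gave -0.25 on FPKM and -0.02 on fragments. Its fragments were 1120, 1029 and 905 in the libraries labelled knockdown and 1226, 1117 and 1149 in those labelled control, and replicate 3 labelled control, at 37.1 FPKM, held no more fragments than replicate 1 at 25.1 FPKM. Dhcr7 gave -0.26 on FPKM and -0.15 on fragments, Tm7sf2 -0.10 and 0.08, and Hsd17b7 0.10 and 0.21. Acss2 differed the other way, at -0.04 on FPKM and -0.17 on fragments. None of these 5 genes was called by limma or by edgeR.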
